A study of Mus musculus with 47 samples.

Results

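Brains of 4 Daxx Y130A/Y130A mouse embryos were compared with brains of 4 wild-type littermates at E18.5, on the whole gene table. The 8 libraries were chosen by tissue, genotype and litter from 47 libraries of liver, lung and brain, and the litters 2848, 2851, 2974 and 3069 each gave 1 mutant and 1 wild-type brain. The study asked what Daxx does in the embryo when it loses 1 interaction, with Atrx (Y130A) or with the histone variant H3.3 (S226A). The 8 brain libraries of this second allele come from other litters. The file lists 20456 genes with the number of reads counted on each, of which 19757 had at least 1 count in these 8 brains and 16892 passed the filter on low counts.

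Daxx is a chaperone of the histone variant H3.3. Its best known partner is the chromatin remodeler Atrx, and in mouse embryonic stem cells the H3.3 found at telomeres and at many endogenous retroviruses depends on both. Loss of function of the human ATRX gene causes an intellectual disability syndrome. The Y130A allele replaces the tyrosine at codon 130 of Daxx with an alanine, in the helical bundle of the protein that binds Atrx, and leaves the histone-binding domain in place.

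The mutant allele was introduced with CRISPR/Cas9 in C57BL/6N zygotes together with silent changes beside the codon, and the founder line was backcrossed to C57BL/6J for 2 generations before heterozygotes were intercrossed. Mutant and wild-type embryos of a litter were matched for sex by the study. All cells of the mutants carry the allele, and whole brain was used, so that fewer cells of a type and less RNA per cell cannot be told apart. The changed codon lies on chromosome 17 from 33911400 to 33911402 (GRCm38, plus strand), in exon 3 of 8 of the Daxx transcript. The reference sequence of codons 123 to 137, from 33911379 to 33911423, is shown to place the allele, with codon 130 (TAT, tyrosine) in capitals.
Daxx codons 123 to 137: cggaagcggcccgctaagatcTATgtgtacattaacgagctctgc

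The total count ranged from 44523912 to 51066900 in Y130A brain and from 46873728 to 53050330 in wild-type brain, and the totals of the groups overlapped. Levels are given as normalized counts, which are counts scaled with TMM factors to a common library size, for the litters in the order 2848, 2851, 2974 and 3069. Neuronal markers were abundant in every library, with a mean of 74178 normalized counts for Tubb3, a neuronal tubulin. The 16 genes of squamous epithelium had a summed level of 15.5 to 17.6 CPM (counts relative to the library total) in the wild-type brains of litters 2848 and 2851 and of 53.3 and 65.5 in those of litters 2974 and 3069, against 15.1 to 26.5 in Y130A brain. Transcripts of pituitary hormones were likewise uneven, with a summed level of 110.2 CPM in the Y130A brain of litter 2974 and 149.7 in the wild-type brain of litter 3069, and 1.90 to 8.97 in the other 6 brains. The summed level of 4 sex-linked genes, among them Ddx3y and Uty, was 0.132, 329, 321 and 0.0898 CPM in Y130A brain. In wild-type brain it was 0.0206, 319, 298 and 1.51 CPM. The study removed the lung of the wild-type embryo of litter 3069 as an outlier, and the brain of that embryo is used here.

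The Y130A brain differed from the wild-type littermate brain at 1 gene when all 47 libraries shared 1 estimate of the spread. By the stringent criteria of the study (adjusted p below 0.01, change beyond 2-fold, standard error below 1), edgeR called 0 of 16892 genes (0%), and DESeq2 called 2. At an adjusted p below 0.05, edgeR called 1 gene higher (0.00592%) and 0 lower, and at an unadjusted p below 0.05 there were 375 genes (2.22%), 239 higher (1.41%) and 136 lower (0.805%). The called gene was Tmem267, which codes for a transmembrane protein. DESeq2 called 7 genes at an adjusted p below 0.05, among them Tmem267 and Zfp992. Of its other calls, Sprr1a, Slurp1 and 2300002M23Rik had at most 2.1 normalized counts in any of these brains. Its calls Ces1d and Abca13 had 4.2 to 21.5 and 5.8 to 45.1 normalized counts.

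The litters paired the embryos: the deviations of littermates from their group means correlated with r = 0.24 to 0.40 over genes in the 4 pairs of littermates, and with r = -0.44 to 0.19 in the 12 pairs of a mutant and a wild-type embryo of other litters. A paired fit, with litter as a term and only the 8 brains, was therefore set beside the first. In this fit 98 of 15463 genes had an adjusted p below 0.05 (0.634%), 65 higher (0.42%) and 33 lower (0.213%), and 3 passed the stringent criteria (0.0194%), namely Gm21887, Tmem267 and 5730507C01Rik. All 98 moved in the same direction in 4 of 4 litters, and 44 of them had groups that did not overlap. The 98 were chosen on these same litters, so that neither count is further support. Over the 13165 genes with a mean of at least 50 normalized counts, the shares were 28.4% and 5.17%. Most of these differences were small: 88 lay within 1.5-fold, 3 between 1.5-fold and 2-fold and 7 beyond 2-fold. At an unadjusted p below 0.05 there were 2721 genes (17.6%), 1409 higher (9.11%) and 1312 lower (8.48%). Without the litter term, the same 8 brains gave 4 genes at an adjusted p below 0.05 (0.0259%): 5730507C01Rik, 9030624G23Rik, Tmem267 and Zfp991. The number of calls fell when any 1 litter was left out, a step that also leaves fewer pairs. The paired fit called 4 genes without litter 2848 (2 of them among the 98) and 57 without litter 2851 (39). It called 16 without litter 2974 (16) and 19 without litter 3069 (16). Why the number fell was not tested.

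**Figure D1:**
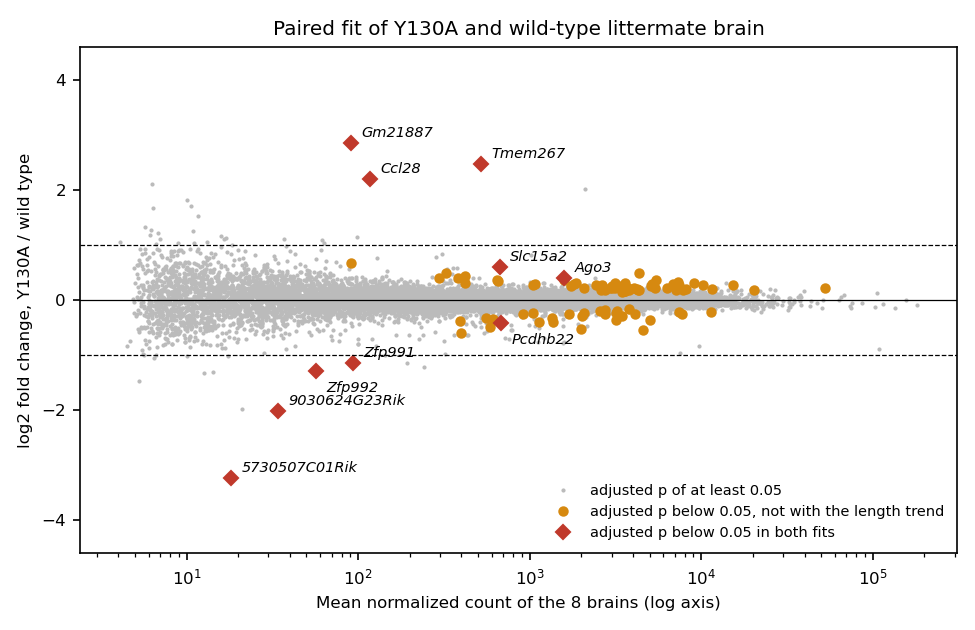
Each point is 1 gene, with its mean normalized count in the 8 brains on a log axis and its log2 fold change, Y130A over wild type, from the paired fit. Dashed lines mark 2-fold. Red diamonds are the 10 genes with an adjusted p below 0.05 both with and without a correction for the trend with exonic length. Orange points are the 88 genes called only without it, with absolute log2 fold changes of 0.16 to 0.67 and a median of 0.25.

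Which changes held in 4 of 4 litters was also counted directly, as the difference of log2(normalized count + 1) between littermates, over the 13165 genes with a mean of at least 50 normalized counts. A single direction in all 4 litters was seen in 3736 genes (28.4%), of which 1618 were higher (12.3%) and 2118 lower (16.1%) in Y130A brain. Their median size was 0.11 on the log2 scale. Of these genes, 204 were beyond 1.1-fold in each litter (109 higher, 95 lower), 18 beyond 1.25-fold (9 higher, 9 lower) and 5 beyond 1.5-fold (3 higher, 2 lower). Beyond 2-fold in each of the 4 litters there were 4 genes (0.0304%): Tmem267, Ccl28 and Gm21887 were higher and Zfp992 was lower. With a lower limit of 10 normalized counts, 5730507C01Rik and 9030624G23Rik joined them, both lower. Groups without overlap were found for 680 genes (5.17%), 381 higher and 299 lower.

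Tmem267 had 715, 910.2, 1051 and 804 normalized counts in Y130A brain. Its wild-type littermates had 243, 96.5, 224 and 96.5. All mutants thus lay above all wild-type brains, by 1.55 to 3.22 on the log2 scale within a litter, and the wild-type brains themselves formed a higher pair (litters 2848 and 2974) and a lower pair (litters 2851 and 3069). The log2 fold change was 2.40 ± 0.39 (SE; n = 4 and 4; 95% interval 1.62 to 3.18; edgeR adjusted p = 0.0101), which is 5.27-fold, and the paired fit gave 2.47 (adjusted p = 0.00621). In the fit of 47 libraries, the call was lost without the wild-type brain of litter 2851 (2.21, adjusted p = 0.215), without that of litter 3069 (2.21, adjusted p = 0.208) and without the Y130A brain of litter 2974 (2.29, adjusted p = 0.0684). In the paired fit, the adjusted p lay between 0.00133 and 0.0354 when any 1 litter was left out.

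The same wild-type litters differed in the other tissues. Wild-type liver had 117, 17.3, 87.2 and 42.1 normalized counts of Tmem267, and wild-type lung had 89.4, 6.02 and 69.6 in litters 2848, 2851 and 2974. Litters 2848 and 2974 were thus the highest in each of the 3 tissues; this order of the litters was not tested. The difference between Y130A and wild type was 2.38 ± 0.42 on the log2 scale in liver (adjusted p = 0.00226) and 2.57 ± 0.44 in lung (adjusted p = 0.0249). In the S226A litters, Tmem267 had 620.5 to 1106 normalized counts in mutant and 118 to 194 in wild-type brain (log2 fold change 2.35 ± 0.40, adjusted p = 0.00119). The effect in Y130A brain minus that in S226A brain was 0.05 (95% interval -1.07 to 1.17).

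Tmem267 (chromosome 13, 119488039 to 119611059, plus strand, GRCm38) is followed on the same strand by Ccl28 (119623819 to 119654359), a chemokine of mucosal epithelia. Ccl28 had 174, 212, 187 and 188 normalized counts in Y130A brain against 58.4, 24.9, 71.1 and 21.4 in wild-type brain. The groups did not overlap, and the wild-type brains were again higher in litters 2848 and 2974. Its log2 fold change was 2.11 ± 0.65 (95% interval 0.79 to 3.44; edgeR adjusted p = 1) in the fit of 47 libraries and 2.20 in the paired fit (adjusted p = 0.0209), and it was 2.04 in S226A brain (adjusted p = 0.826; paired fit of the S226A litters, adjusted p = 0.000607). Of the other 10 genes listed within 500 kb of Tmem267, 8 passed the filter of the 47-library fit and 7 that of the paired fit, and none of these had an adjusted p below 0.05. Not tested in either fit were AF067063 and Gm21761, and Gm21188 was not tested in the paired fit. The log2 fold change of the nearest abundant ones was -0.01 for Paip1, 0.14 for 4833420G17Rik and 0.06 for Hmgcs1, a cholesterol synthesis enzyme. The antisense gene 3110070M22Rik overlaps the start of Tmem267 and had 48.3, 62.5, 51.3 and 51.7 against 51.3, 9.14, 44.3 and 26 normalized counts (0.71 ± 0.67). Whether counting used the strand is not given in the sources used here, and without it reads of the 2 overlapping genes cannot be told apart. Nnt, which carries a deletion in C57BL/6J mice and not in C57BL/6N, lies in the same window and had a log2 fold change of 0.02 ± 0.24.

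The RefSeq promoters of these neighbours (GRCm38.p6, plus strand, 250 bases before to 50 after the start) are shown because both genes were higher in every Y130A litter. Capitals mark the dinucleotide CG, which reads the same on both strands. The promoter of Tmem267 at chr13:119487836-119488135 holds 22 CG, and 23.1% of 32851 promoters hold at least as many. The one at chr13:119488223-119488522 holds 50, a number reached by 0.855% of promoters, and that of Ccl28 at chr13:119623569-119623868 holds 4, which 68.6% reach. The median promoter holds 7. These counts describe the letters only, since no methylation or binding was measured here.
Tmem267, first promoter: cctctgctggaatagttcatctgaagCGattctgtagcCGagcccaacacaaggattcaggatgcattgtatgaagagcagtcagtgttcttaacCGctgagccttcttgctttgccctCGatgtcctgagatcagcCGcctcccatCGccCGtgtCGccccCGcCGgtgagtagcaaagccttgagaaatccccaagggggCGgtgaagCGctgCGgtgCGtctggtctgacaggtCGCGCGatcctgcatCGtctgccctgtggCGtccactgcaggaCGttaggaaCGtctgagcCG
Tmem267, second promoter: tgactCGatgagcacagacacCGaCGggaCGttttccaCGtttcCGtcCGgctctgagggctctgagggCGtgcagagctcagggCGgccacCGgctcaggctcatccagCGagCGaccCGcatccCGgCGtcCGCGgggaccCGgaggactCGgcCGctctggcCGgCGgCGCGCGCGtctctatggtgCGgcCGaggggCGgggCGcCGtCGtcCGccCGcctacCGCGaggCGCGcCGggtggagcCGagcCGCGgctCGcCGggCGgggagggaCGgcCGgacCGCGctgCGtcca
Ccl28 promoter: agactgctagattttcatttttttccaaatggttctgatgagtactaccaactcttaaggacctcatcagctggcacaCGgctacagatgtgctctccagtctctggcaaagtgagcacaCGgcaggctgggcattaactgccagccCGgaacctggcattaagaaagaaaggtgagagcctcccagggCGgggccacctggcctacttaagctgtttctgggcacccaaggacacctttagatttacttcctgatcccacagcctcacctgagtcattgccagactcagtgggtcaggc

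Gm21887, a predicted gene in the pseudoautosomal region (chromosome X, 170009659 to 170019281), had 318, 77.4, 148 and 91.4 normalized counts in Y130A brain and 38.2, 7.11, 34.8 and 9.25 in wild-type brain. The groups did not overlap, litters 2848 and 2974 were the highest in both, and the difference within a litter was between 2.05 and 3.27 on the log2 scale. The log2 fold change was 2.82 ± 0.68 (95% interval 1.45 to 4.21; edgeR adjusted p = 0.778), and 2.85 in the paired fit (adjusted p = 0.00199). It was 4.22 in S226A brain (adjusted p = 0.00511), 3.00 in Y130A liver (adjusted p = 0.0623) and 3.70 in Y130A lung (adjusted p = 0.333). Tmem267 and Gm21887 belong to 11 genes that the study named as higher in the livers of both mutants. Tmem267 was also chosen by the study on these brains, and the livers came from the same embryos, so that the direction of either gene is not independent evidence. The other 9 had log2 fold changes of -0.42 to 0.42 in Y130A brain and none was called. Of all 11, 5 were higher and 1 lower at an unadjusted p below 0.05 in the paired fit, beside 9.11% and 8.48% of all genes. Of the 9 with a mean of at least 50 normalized counts, 6 were higher and 1 lower in 4 of 4 litters, beside 12.3% and 16.1% of all genes. Members not called include Aplp1 (-0.07), Gria4 (0.12) and Atp1b3 (0.06).

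Further genes of low or moderate counts were lower in every litter. 5730507C01Rik (chromosome 12, 18514510 to 18535254) had 2.91, 2.21, 2.64 and 6.01 normalized counts in Y130A brain and 33.9, 33.5, 17.9 and 46.8 in wild-type brain. 9030624G23Rik, also on chromosome 12 (24043202 to 24097246), had 12.2, 17.1, 14.8 and 9.62 against 57.9, 50.8, 52.7 and 56.7. Neither gene had overlapping groups. Their log2 fold changes were -3.23 ± 0.79 and -2.01 ± 0.71, with adjusted p = 0.00621 and 0.012 in the paired fit (edgeR), and in S226A brain they were -2.46 and -1.60.

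Zfp991 and Zfp992 belong to a family of KRAB-type zinc finger genes, and both lie on chromosome 4 (147132038 to 147180579 and 146449023 to 146470292). Zfp991 had 66.3, 52, 52.9 and 59.5 normalized counts in Y130A brain against 130.5, 150.3, 121 and 110.4 in wild-type brain. Zfp992 had 39.5, 35.4, 19.6 and 39.1 against 91.2, 88.8, 62.2 and 79.8. For both genes every mutant lay below every wild-type brain. The log2 fold changes were -1.15 ± 0.38 and -1.27 ± 0.30 (paired fit, adjusted p = 0.0146 and 0.0179, edgeR), and in S226A brain they were -0.79 ± 0.40 and -1.56 ± 0.32 (adjusted p = 1 and 0.0103). Zfp993 between them had 5.29 to 10.2 normalized counts in Y130A and 12.6 to 29.4 in wild-type brain (paired fit, adjusted p = 0.0776). Members of this family are alike in sequence, so that the split of reads between them is uncertain. Over the 109 genes tested with symbols from Zfp700 to Zfp999, 1 was higher and 3 were lower at an unadjusted p below 0.05 beside 1.41% and 0.805% of all genes, and the median log2 fold change was 0.01, beside 0.00 over all genes. The paired fit had 11 higher and 13 lower of 107 at that limit, beside 9.11% and 8.48% of all genes, and the 2 called lower were Zfp991 and Zfp992.

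**Figure D2:**
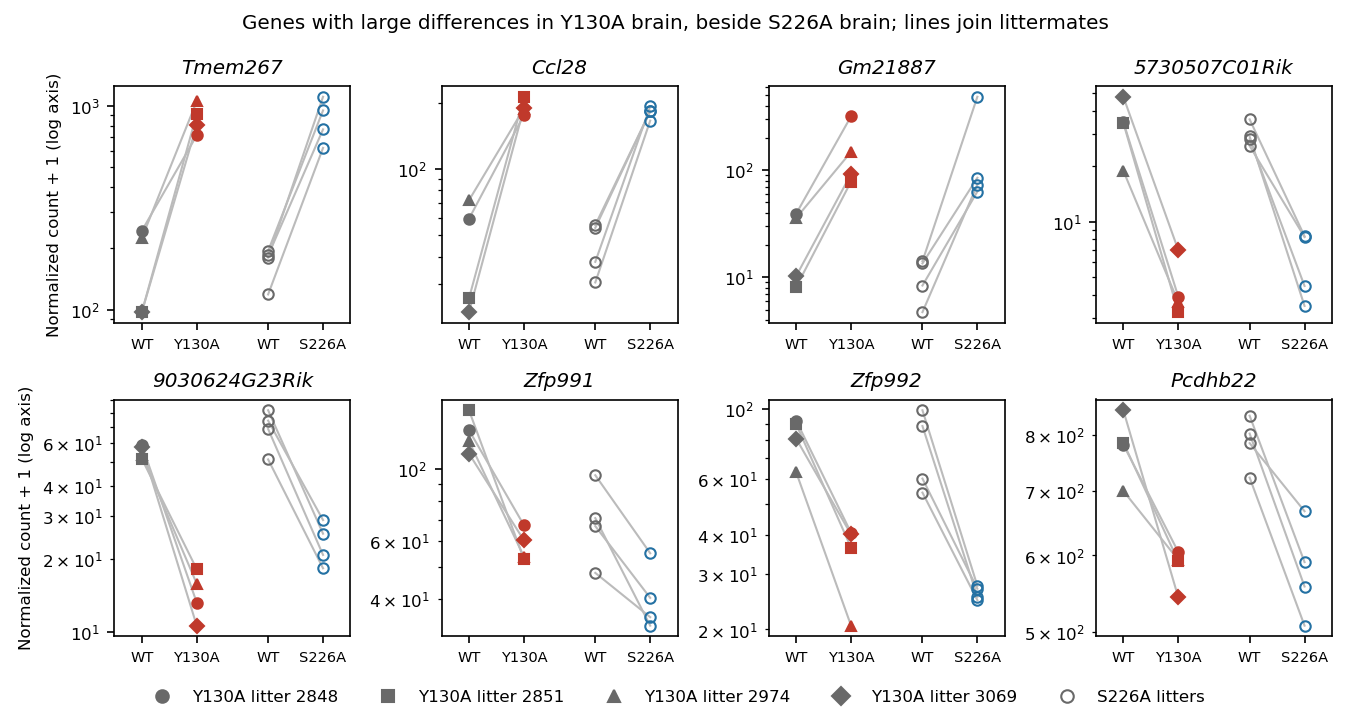
Normalized counts plus 1, on log axes, of 8 genes with large differences in Y130A brain; filled symbols are the 8 brains of the Y130A litters with a symbol per litter, open circles the 8 brains of the S226A litters, and lines join littermates. The 4 Y130A brains lie above the 4 wild-type brains of their litters for Tmem267, Ccl28 and Gm21887 and below them for the other 5 genes.

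Pcdhb22, Slc15a2 and Ago3 had smaller differences that passed the paired fit with and without a correction for gene length. Pcdhb22 is a clustered protocadherin, one of the cell adhesion genes of which single neurons express different sets, and it had 604, 591, 593 and 542 normalized counts in Y130A brain against 781, 785, 699 and 848 in wild-type brain. It was lower in each litter, with no overlap, by -0.42 ± 0.19 on the log2 scale (paired fit, adjusted p = 0.031). In S226A brain it differed by -0.44 ± 0.19. Slc15a2, a peptide transporter, had 731, 1001, 943 and 555 against 498, 659.5, 522 and 426, so that the groups overlapped while each mutant lay above its littermate (paired fit 0.60, adjusted p = 0.0121). The fit of 47 libraries gave it 0.62 ± 0.62, and the fit of the 8 brains without the litter term 0.62 ± 0.17 (edgeR adjusted p = 0.469). Ago3, an Argonaute protein of small RNA silencing, had 2123, 1783, 1631 and 1664 against 1559, 1445, 1134 and 1334 (paired fit 0.40, adjusted p = 0.012). Its groups did not overlap, and it differed by 0.08 ± 0.10 in S226A brain. Over the 56 clustered protocadherins tested, 0 were higher and 1 was lower at an unadjusted p below 0.05 in the 47-library fit, beside 1.41% and 0.805% of all genes. The median was 0.02. The paired fit had 14 higher and 10 lower at that limit, beside 9.11% and 8.48% of all genes. Pcdhgb2 was the one called higher (0.32, adjusted p = 0.0457, and with the length trend, adjusted p = 0.11), and Pcdhb22 the one called lower, beside 0.42% and 0.213% of all genes.

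Daxx itself had 1102, 1158, 1208 and 1161 normalized counts in Y130A brain and 1169, 1272, 1365 and 1219.9 in wild-type brain. It was lower in each of 4 litters although the groups overlapped, by -0.12 ± 0.09 on the log2 scale (95% interval -0.30 to 0.06; edgeR adjusted p = 1; paired fit, adjusted p = 0.198). On the linear scale the interval runs from 0.814-fold to 1.04-fold. Atrx had 18804, 16339, 15954 and 15956 against 16129, 16554, 13424 and 14804 (0.14 ± 0.07; edgeR adjusted p = 1). The exons of the gene cover 21.8 kb in all, and with the length trend taken out its log2 fold change was -0.01. The genes of H3.3, H3f3a and H3f3b, each had -0.15 on the log2 scale, below 0 in 4 of 4 litters, with adjusted p = 0.1 and 0.093 in the paired fit. The other members of the list of 19 are Hira and its partners Cabin1, Ubn1 and Ubn2, the histone chaperone Asf1a, the silencing factors Setdb1, Trim28, Suv39h1 and Suv39h2, the heterochromatin proteins Cbx1, Cbx3 and Cbx5, the deacetylase Hdac1, and Pml and Morc3 of nuclear bodies. All 19 intervals of the 47-library fit lay within 2-fold, the median was 0.00 and 1 gene had an unadjusted p below 0.05, beside 2.22% of all genes. At that limit 5 of the 19 were higher and 3 lower in the paired fit, beside 9.11% and 8.48% of all genes. Ubn2 passed the paired fit (0.22, adjusted p = 0.038) and not with the length trend (0.08, adjusted p = 0.409).

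Csf2ra, the alpha chain of the receptor for granulocyte-macrophage colony-stimulating factor, is known to be lower in mouse brain that lacks Atrx. It had 405, 333, 317 and 306 normalized counts in Y130A brain and 483, 424, 451 and 408 in wild-type brain. The groups did not overlap, although the highest mutant and the lowest wild-type brain, of different litters, were nearly equal. The log2 fold change was -0.38 ± 0.16 (edgeR adjusted p = 1), and the paired fit gave an log2 fold change of -0.38 (adjusted p = 0.0346), or -0.34 with the length trend (adjusted p = 0.11). In S226A brain it was -0.21 ± 0.16. Mid1, which spans the pseudoautosomal boundary in these mice, differed by -0.04.

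Many of the small differences of the paired fit moved with exonic length, the number of bases covered by all annotated exons of a gene. The 65 genes called higher had a median exonic length of 14.5 kb, the 33 called lower one of 1.82 kb, and all genes tested one of 4.39 kb. Over 8 kb were 57 of the genes called higher and 0 of those called lower, beside 17.5% of all genes tested. Of up to 1 kb were 10 of the genes called lower and 1 of those called higher, beside 2.41% of all genes tested. Over all genes with a mean of at least 50 normalized counts, the median difference rose with exonic length in each litter, from between -0.16 and -0.10 for 228 genes of up to 1 kb to between 0.06 and 0.21 for 307 genes of over 16 kb. In the litters of S226A, the same medians were 0.01 to 0.09 and -0.04 to 0.04. Genes over 8 kb took 34.2%, 32.9%, 31.7% and 31.9% of the counts in Y130A brain and 31.7%, 31.7%, 29.5% and 31.2% in wild-type brain, more in the mutant of each litter. Exonic length thus moved with genotype in these 8 libraries, and its part in any single difference was not tested.

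**Figure D3:**
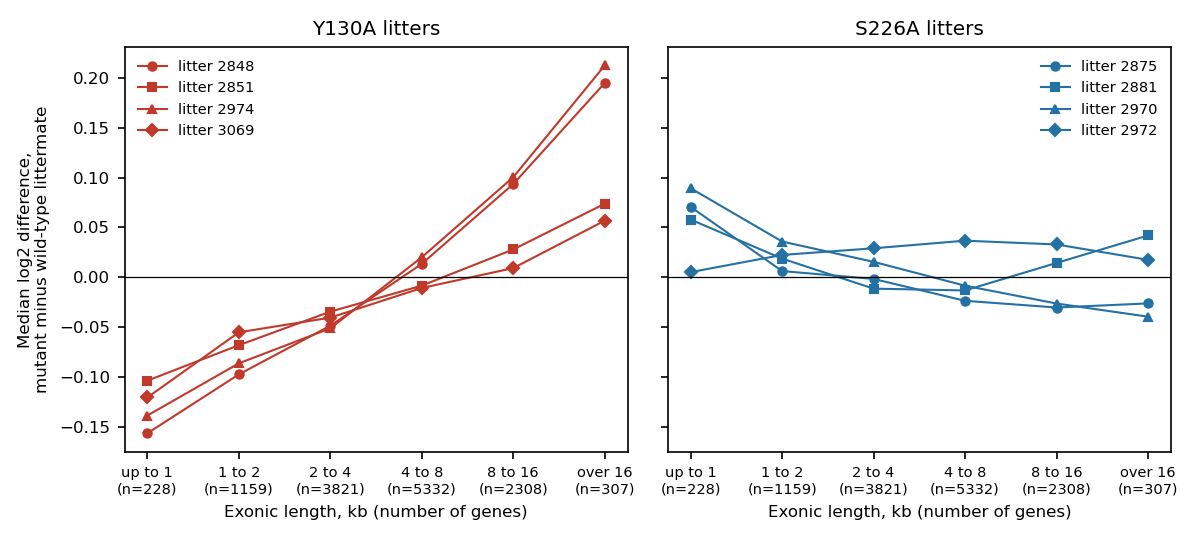
Median log2 difference of normalized counts between mutant and wild-type littermate, for genes grouped by exonic length in kb; each line is 1 litter, with the Y130A litters on the left and the S226A litters on the right. The 4 Y130A lines rise from below 0 for short genes to above 0 for long ones, and the S226A lines lie between -0.04 and 0.09.

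The long genes called higher are listed here with their roles where these are well known. Syne1, a nesprin that ties the nucleus to the cytoskeleton (40.5 kb), had 11094, 11177, 9429.9 and 8678 normalized counts in Y130A brain and 8115, 9320.0, 7298 and 7802 in wild-type brain. Each mutant exceeded its littermate, the groups overlapped, and the paired log2 fold change was 0.31 (adjusted p = 0.0264; 0.09 and 0.322 with the length trend). Macf1, a cytoskeletal cross-linker (31.4 kb), gave 0.23 (adjusted p = 0.0346). Others were the ryanodine receptors Ryr2 and Ryr3, the sodium channels Scn1a and Scn9a, the channel subunits Unc79 and Unc80, the synaptic adhesion gene Nrxn3, the receptor Lrp1b, the cadherin Fat3, the dyneins Dnah6, Dnah7b and Dync2h1, Dmd, Htt, Mdn1, Smg1, Herc1 and the p53 regulator Mdm4. The transcription factor Zbtb20 (30.7 kb) had 0.36, the laminin chain Lama3 0.50, the sarcoglycan Sgcd 0.43 and the metabotropic glutamate receptor Grm8 0.29 in the paired fit. D10Wsu102e, annotated with 123 kb of exons, had 0.49, and 0.13 with the length trend. Further calls among genes with over 8 kb of exons had paired log2 fold changes of 0.16 (Scai) to 0.41 (Cfap44). Among them were the vesicle and membrane genes Aak1, Vps13b, Vps13c, Arfgef3 and Fyco1, the actin regulators Enah and Sorbs2, the cilia genes Cspp1 and Cplane1, the RNA-binding or RNA-decay genes Tnrc6b, Pan3, Prpf39, Nktr, Zcchc7 and Adarb2, the glycolytic enzyme Pfkp, the postsynaptic Lrrc7, the GTPase regulators Ralgapa1 and Rapgef6, and Adgrv1, Cxxc4, Eml5, Etnk1, Snhg11, Ttc14, Zbtb37 and 4932438A13Rik. Shorter genes called higher and not described above were Ccdc39, a gene of motile cilia (7.44 kb, 0.28), and Gm45844 (0.67, adjusted p = 0.0457), which had 102.8 to 124 normalized counts in Y130A and 62.7 to 80.2 in wild-type brain. ENSMUSG00000095041.7, which has no symbol in the file and no exonic length here, had 0.34. Of 318 genes tested with exons of over 16 kb, 56 were higher and 0 lower at an unadjusted p below 0.05 with a median of 0.13, beside 1.41% and 0.805% of all genes. In the paired fit 29 were called higher, beside 0.42% of all genes. With the length trend taken out the median was 0.00.

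Replication-dependent histone genes, which supply the histones of dividing cells and whose mRNAs lack poly(A) tails, had a median log2 fold change of -0.44. Of 63 tested, 0 were higher and 30 lower at an unadjusted p below 0.05, beside 1.41% and 0.805% of all genes. None was called in the 47-library fit, 10 of 62 were called lower in the paired fit, beside 0.213% of all genes, and none was called with the length trend. In 37 of 55 members with a mean of at least 50 normalized counts, all 4 litters were lower, beside 16.1% of all genes. The median within a litter was -0.31, -0.09, -0.74 and -0.52, smallest in litter 2851 and largest in litter 2974. Hist1h3e had 2040.5, 1313, 1676 and 1431 normalized counts in Y130A and 2774, 1569, 2989 and 2086 in wild-type brain (paired fit -0.52, adjusted p = 0.0269; with the length trend -0.43, adjusted p = 0.0894). Hist1h4h gave -0.54 (adjusted p = 0.0498) and the linker histone Hist1h1e -0.25 (adjusted p = 0.0261). Hist1h1c, Hist1h2bg, Hist1h4d, Hist1h4f, Hist1h4n, Hist2h3b and Hist2h4 were the others called lower, by -0.60 (Hist2h3b) to -0.32 (Hist1h4f). The median of the list was -0.29 with the length trend and 0.19 in S226A brain. Histone genes are short and alike, so that the split of reads among them is uncertain.

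Ribosomal protein genes, also short, had a median of -0.09 over 80 genes, with 0 higher and 4 lower at an unadjusted p below 0.05 and 5 called lower in the paired fit (Rpl27, Rpl27a, Rpl36, Rplp1 and Rplp2), beside 0.805% and 0.213% of all genes. At an unadjusted p below 0.05 the paired fit had 39 of 80 lower and 0 higher, beside 8.48% and 9.11% of all genes, and 40 of 79 were lower in 4 of 4 litters, beside 16.1%. Rplp1, a protein of the ribosomal stalk, had 10138, 10124, 11174 and 10984 normalized counts in Y130A brain and 11668, 11586, 13439 and 12638 in wild-type brain. The groups did not overlap and the paired difference was -0.22 (adjusted p = 0.0269), or -0.10 with the length trend (adjusted p = 0.239). The median of the list with the length trend was -0.03. This list and the lists by length were chosen after the values were seen.

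Apart from the histone and ribosomal protein genes and the genes described above, those called lower in the paired fit had log2 fold changes of -0.35 to -0.16. Lhx2, a LIM homeodomain factor of the developing forebrain, had 1624, 1381, 1508 and 1647 normalized counts in Y130A brain and 2056, 1559.7, 1808 and 1889 in wild-type brain (-0.24, adjusted p = 0.0457; with the length trend -0.23, adjusted p = 0.11). It was lower in each litter, and the groups overlapped. Cox6a1, a subunit of cytochrome c oxidase, had -0.23, Lsm4 of the splicing machinery -0.24, the ribosome assembly factor Nop53 -0.24, and Csnk2b, the regulatory subunit of casein kinase CK2, -0.17. The rest were Rex1bd (-0.35), Ppp2r3d (-0.32), Irf2bpl (-0.29), the ubiquitin ligase Rnf126 (-0.24), the kinesin-like Kif26a (-0.23), R3hdm4 (-0.19) and the cytokine Mif (-0.16). None of these kept its call with the length trend, where their log2 fold changes were -0.31 (Ppp2r3d) to -0.07 (Mif). Kif26a (-0.25) and R3hdm4 (-0.20) were then at least as far from 0 as before, and Nop53 had -0.22 (adjusted p = 0.06).

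With a trend of count on exonic length removed from each library, the paired fit called 10 genes (0.0647%), all of them among the 98. These were Tmem267, Ccl28, Gm21887, Slc15a2 and Ago3, higher, and 5730507C01Rik, 9030624G23Rik, Zfp991, Zfp992 and Pcdhb22, lower. In the paired fit without litter 2848, Tmem267 and Gm21887 were still called and the other 8 had an adjusted p between 0.0513 and 0.116. Zfp992 also lost its call without litter 2851 (adjusted p = 0.0543), Ccl28 without litter 3069 (0.0526), and Pcdhb22 without litter 2851 (0.0795) and without litter 3069 (0.0626). Of the 98 genes, 54 had the same sign in the paired fit of S226A brain (55.1%, beside 47.2% of all 14721 genes in both fits), and 11 of them had an unadjusted p below 0.05 there. In either direction, 3.17% of all genes had such a p in that fit. The 88 genes lost with the length trend had a median absolute log2 fold change of 0.25 in Y130A brain and 0.04 in S226A brain; 44 of them had the same sign there and 2 of these an unadjusted p below 0.05.

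How large a change the data leave room for was read from the 95% interval of each log2 fold change. In the fit of 47 libraries, the interval lay within 2-fold in both directions for 13312 of 16892 genes (78.8%), within 1.5-fold for 65.4% and within 1.25-fold for 37.8%, and the median gene excluded a change beyond 1.32-fold. Among the 13165 genes with a mean of at least 50 normalized counts, 95.8% lay within 2-fold and 82.9% within 1.5-fold, and 10 had a point estimate beyond 2-fold. In the paired fit, 94.0% of 15463 genes lay within 2-fold and 85.3% within 1.5-fold, and the median gene excluded a change beyond 1.16-fold. The limit followed the count of a gene: in the fit of 47 libraries the share within 2-fold was 2.72% of genes below 10 normalized counts, 37.4% from 10 to 50, 79.4% from 50 to 200 and 97.4% from 200 to 1000. The paired fit reached 18.6%, 76.9%, 98.2% and 99.7% in these ranges. Its lowest range held 569 genes after its own filter and that of the 47-library fit 1988, so that these shares are not over the same genes. For genes below 10 normalized counts a difference under 2-fold was mostly not detectable at this depth. The intervals hold for a gene at a time and are not adjusted for the number of genes.

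**Figure D4:**
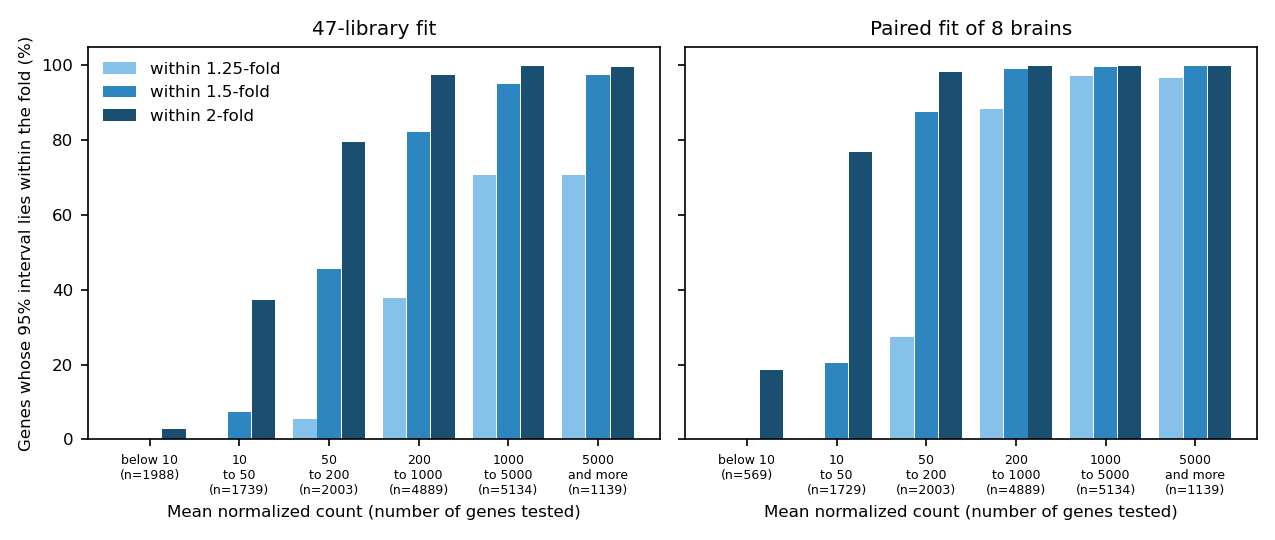
Bars give the percent of genes whose 95% interval lies within 1.25-fold, 1.5-fold or 2-fold of no change, by mean normalized count, for the fit of 47 libraries (left) and the paired fit of 8 brains (right). The share within 2-fold rises from 2.72% below 10 normalized counts to 97.4% from 200 to 1000 on the left, and from 18.6% to 99.7% on the right.

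Lists of brain cell types held 0 genes with an adjusted p below 0.05 in either fit. Of 16 genes of neural progenitors (among them Nes, Vim, Pax6 and Fabp7) 0 had an unadjusted p below 0.05, the median log2 fold change was -0.06 and 15 intervals lay within 2-fold. Of 14 genes of postmitotic neurons 0 passed that limit, the median was -0.03 and all 14 intervals lay within 2-fold. Tubb3 had -0.14 (95% interval -0.79 to 0.52) and Map2, a dendritic microtubule protein, 0.09 (-0.19 to 0.37). Among 14 genes of excitatory neurons and cortical layers, Reln, the secreted protein that guides layering, was higher at an unadjusted p of 0.0204 (0.29 ± 0.12), and the exons of the gene cover 23.7 kb; with the length trend it was 0.15 (adjusted p = 0.286). The list had a median of -0.07. For 12 genes of inhibitory neurons the median was -0.13 with 0 genes at an unadjusted p below 0.05, and 5 were lower in 4 of 4 litters, beside 16.1% of all genes. The median within a litter was -0.25, -0.08, -0.06 and -0.09, below 0 in each. It was below 0 in each litter also for progenitors (-0.11 to -0.0046) and postmitotic neurons (-0.06 to -0.02). In 4 of 4 litters, 2 were higher and 5 lower of 14 genes of postmitotic neurons, and likewise of 14 of excitatory neurons and cortical layers. Of 16 progenitor genes 3 were higher and 4 lower in 4 of 4 litters, beside 12.3% and 16.1% of all genes. In the paired fit the counts at an unadjusted p below 0.05 were larger than in the 47-library fit, for these lists as for all genes (9.11% higher and 8.48% lower). They were 0 higher and 4 lower among inhibitory neuron genes, 1 and 5 among excitatory and cortical layer genes, 2 and 3 among progenitor genes and 2 and 3 among genes of postmitotic neurons. Gad1, which makes GABA, had 0.01 (-0.44 to 0.46) and Sst, somatostatin, -0.25 (-0.59 to 0.09). The intervals given here are from the 47-library fit. That fit had 5 of 12 inhibitory neuron genes and 10 of 14 genes of postmitotic neurons within 1.5-fold. The paired fit had 12 of 12 and 14 of 14 within 1.5-fold.

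Receptors for glutamate and GABA, the main excitatory and inhibitory transmitters, had intervals within 2-fold throughout. Of 31 subunits 0 had an unadjusted p below 0.05 in the 47-library fit, and 12 were higher and 0 lower at that limit in the paired fit, beside 9.11% and 8.48% of all genes. None was called in either fit, the median was 0.10, and 10 were higher in 4 of 4 litters beside 12.3% of all genes. Gria2, an AMPA receptor subunit, had 0.13 (-0.27 to 0.54), Grin2b, an NMDA receptor subunit, 0.25 (-0.17 to 0.67), and Gabra2, a GABA-A receptor subunit, 0.29. These values are from the 47-library fit, where 15 of 31 intervals lay within 1.5-fold. In the paired fit 31 of 31 did. With the length trend the median was 0.06.

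In glial and vascular lists, medians were 0.05 for 10 genes of astrocytes, -0.01 for 11 genes of the oligodendrocyte lineage, -0.01 for 12 genes of endothelium and pericytes, 0.14 for 10 genes of choroid plexus and 0.08 for 10 genes of meninges and fibroblasts, with 0 genes at an unadjusted p below 0.05 in each. In the paired fit, 2 were higher and 0 lower of 10 at that limit for choroid plexus and likewise for meninges, beside 9.11% and 8.48% of all genes. Endothelium and pericytes had 0 higher and 2 lower of 12, astrocytes 1 and 0 of 10, and the oligodendrocyte lineage 1 and 1 of 11. Ttr, the thyroxine carrier of choroid plexus, had 0.18 (-0.80 to 1.15), and its interval reached past 2-fold. Erythroid genes, which follow the blood left in the tissue, had a summed level of 435 to 1360.3 CPM in Y130A brain and 447 to 1276 in wild-type brain and a median of -0.08. Within a litter their median was 0.10, -0.24, -0.97 and 0.57, so that litters 2974 and 3069 went in opposite directions.

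Microglia are the resident macrophages of the brain. Of 15 microglia genes 0 had an unadjusted p below 0.05, the median was -0.05, and 14 intervals lay within 2-fold. The paired fit had 0 higher and 2 lower at an unadjusted p below 0.05, beside 9.11% and 8.48% of all genes, and 2 of the 12 genes with a mean of at least 50 normalized counts were lower in 4 of 4 litters, beside 16.1%. Their summed level was 144 to 159 CPM in Y130A brain and 137 to 169 in wild-type brain. In S226A brain it was 61.3 to 71.4, against 139 to 150.1 in its wild-type littermates, and the median log2 fold change was -1.01. The difference between the 2 alleles was tested gene by gene, and 8 of 16892 genes (0.0474%) had an adjusted p below 0.01 and a difference beyond 2-fold. They are Csf1r, Cx3cr1, Ctss, Cd163, Ly86, Mpeg1, Naip6 and Rasal3. Csf1r, the receptor on which microglia depend, had 716 to 732 normalized counts in Y130A brain and 706 to 838 in its wild-type littermates, and 239 to 317 in S226A brain and 727 to 773 in its wild-type littermates (difference of log2 fold changes 1.43, 95% interval 1.22 to 1.65, edgeR adjusted p = 3.36e-12). Cx3cr1, the fractalkine receptor, had 273 to 370.2 against 299 to 358, and 68.4 to 91.4 against 317 to 408 (difference 2.16, 1.62 to 2.70). The effects of the 8 genes in Y130A brain lay between -0.09 and 0.29 on the log2 scale.

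Other programs were tested as lists of the same kind. Imprinted genes, expressed from 1 parental copy, had a median of 0.03 over 31 genes, with 1 higher and 0 lower at an unadjusted p below 0.05, and 7 higher and 3 lower of 30 in the paired fit, beside 9.11% and 8.48% of all genes there. Targets of p53 had a median of -0.03 over 16 genes and interferon-stimulated genes one of 0.04 over 22, with 0 genes past that limit in either list in the 47-library fit. The paired fit had 1 higher and 2 lower of 16 among the p53 targets and 0 of 20 among the interferon-stimulated genes. The medians were 0.10 for 12 germline genes, 0.03 for 15 immediate early genes, -0.05 for 12 genes of the hypoxia response, -0.06 for 23 regional genes of the brain and 0.03 for 6 genes that differ between C57BL/6J and C57BL/6N, again with 0 genes past it in the 47-library fit. At the same limit, the paired fit had 2 higher and 3 lower of 15 immediate early genes, 1 higher of 9 germline genes, 1 lower of 11 genes of the hypoxia response, 1 higher and 1 lower of 23 regional genes, and 1 higher of 5 genes that differ between C57BL/6J and C57BL/6N. Of 213 genes tested within 5 Mb of Daxx, a set chosen after the values were seen, 2 were higher and 1 was lower at an unadjusted p below 0.05 in the 47-library fit. The shares of all genes were 1.41% and 0.805%, and the median of the set was -0.03. The paired fit had 6 higher and 21 lower of 190 at that limit, beside 9.11% and 8.48% of all genes, and 1 was called lower, beside 0.213%. In 4 of 4 litters 10 were higher and 40 lower of 145, beside 12.3% and 16.1% of all genes, and the median within a litter was -0.07 to -0.03. Squamous epithelial genes had a median of -1.15 over 15 genes, with 3 lower at an unadjusted p below 0.05, beside 0.805% of all genes. Over the 9 of them tested in the paired fit, 3 were lower at that limit, beside 8.48% of all genes, and the median was -0.67, or -0.71 with the length trend. Krt14, a basal keratin, had 3.49, 2.21, 12.2 and 10.8 normalized counts in Y130A brain and 4.91, 5.58, 37.4 and 90.8 in wild-type brain, so that the high levels were those of the wild-type brains of litters 2974 and 3069.

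**Figure D5:**
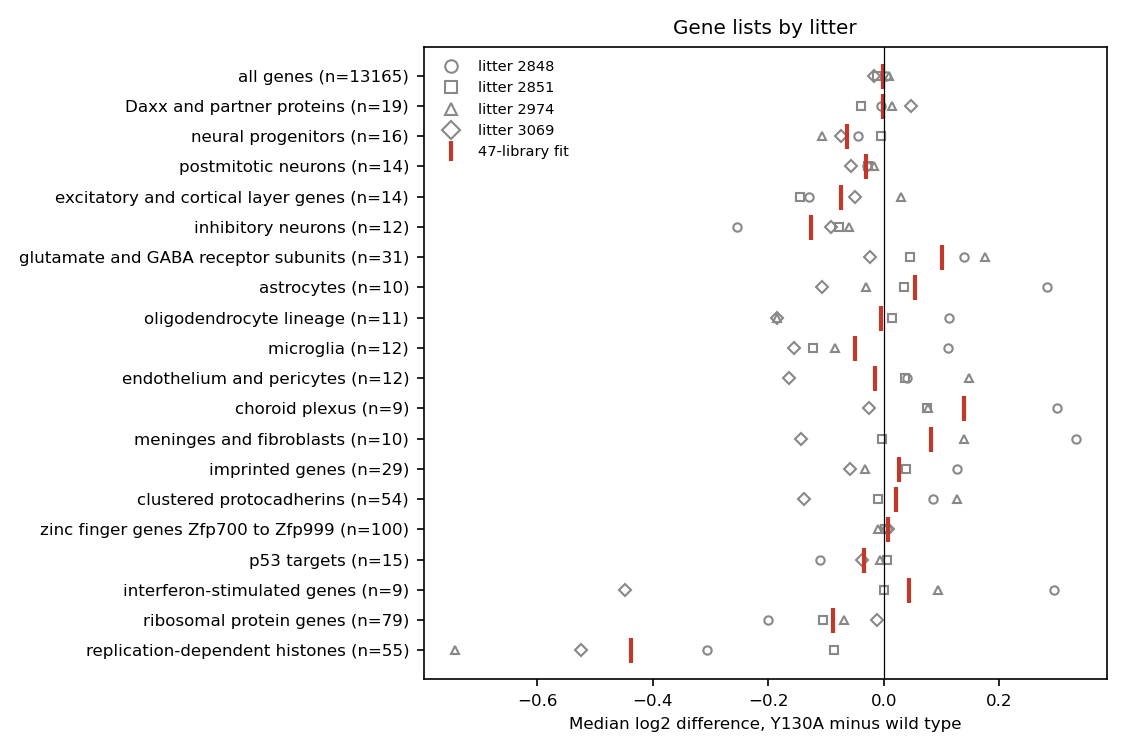
Median log2 difference between Y130A and wild-type brain for 20 gene lists; gray symbols are the 4 litters, computed over the members with a mean of at least 50 normalized counts (n), and red bars the median of the 47-library fit over the members tested. Most lists lie near 0, and the replication-dependent histones reach -0.74 in litter 2974 and -0.09 in litter 2851.

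The same embryos gave the livers of the Y130A set. The effect of Y130A in brain minus that in liver passed an adjusted p below 0.01 and 2-fold at 3 of 16892 genes (0.0178%), which were Atp1b3, Aplp1 and Gria4. With litter within tissue as a replicate block, 11 genes passed. Atp1b3, a subunit of the sodium pump, had 2565 to 2817 normalized counts in Y130A brain and 2424 to 2814 in wild-type brain, and 4251 to 4736 in Y130A liver and 1659 to 2159.8 in wild-type liver (difference -1.25, 95% interval -1.53 to -0.97). Aplp1, a relative of the amyloid precursor protein, and Gria4, an AMPA receptor subunit, had 7359 to 8347 and 4719.9 to 5637 normalized counts over the 8 brains, where their log2 fold changes were -0.07 and 0.12.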

How the data were processed

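RNA of E18.5 brain was extracted with Trizol and sequenced on libraries made by the standard Illumina procedure. The authors trimmed the reads (Trim Galore 0.6.5, FastQC 0.11.5), aligned them to GRCm38 with STAR 2.6.0b and deposited the read counts per gene that STAR gave, without normalization; the annotation was a GENCODE release, and the strand setting is not given in the sources used here. All 47 count columns were used. Of 20456 genes listed, 20424 matched GENCODE M21, from which positions and exonic lengths (the union of a gene's exons) were taken, and 20387 are protein coding. Promoters were taken from RefSeq (GRCm38.p6).

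Samples were grouped by tissue, genotype and litter set from the sample labels, and litters were read from the same labels. The fit of 47 libraries used edgeR 4.0.16 in R 4.3.3: TMM factors, filterByExpr (minimum count 10, minimum total 15), 1 coefficient per group, glmQLFit and glmQLFTest, and Benjamini-Hochberg adjustment over all genes tested. The paired fit used only the 8 brains with litter as a block, since the deviations of littermates correlated above 0.1 in all 4 pairs. Intervals are the coefficient plus or minus the t quantile times its Wald standard error at 95%, and counting error is included in them. The length trend was a lowess curve (span 0.3) of log2 count on log2 exonic length in each library, entered as an offset. Differences within litters used log2(normalized count + 1). Alternatives were DESeq2 1.42.0, limma-voom 3.58.1, RLE size factors, no filter, other samples or blocks, and leaving out each library or litter. The 47-library, 8-brain, paired and DESeq2 fits were also run on simulated counts. These were drawn without a litter effect or a length trend, so that they cannot check how either was handled. Figures were drawn with matplotlib 3.10.9 in Python 3.11.15.

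Members, lists and rules were chosen with earlier results of these data known. Genes named are Daxx and its partners, genes that the study names as shared, every gene with an adjusted p below 0.05 in the edgeR, paired or DESeq2 fit, every gene beyond 2-fold in 4 of 4 litters with a mean of at least 50 normalized counts, the 10 highest and 10 lowest such genes without overlap, list members as examples, and neighbours of Tmem267 within 500 kb. One gene called in the paired fit is not reported here. Of the 29 lists, 12 genes are not analysed here. Each embryo gave 1 library per tissue, and the 4 litters are the replicates.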

Additional observations from a re-analysis of the deposited data

Results flagged for a closer look

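Among 54 groups of 4 brains examined with Dixon's ratio, 2 held a library far from the other 3, where chance flags about 1 group in 20. The Y130A brain of litter 2848 had 18804 normalized counts of Atrx, above the other 3 Y130A brains. The wild-type brain of litter 2974 had 36.4 normalized counts of Gm20696, below its group.

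The effects of the Y130A and S226A alleles in brain differed by the interaction test of edgeR at 8 genes. The log2 fold change in Y130A brain minus that in S226A brain was 1.43 for Csf1r, 2.16 for Cx3cr1, 1.48 for Ctss, a lysosomal protease, 2.23 for Cd163, a scavenger receptor, 2.08 for Ly86, 1.28 for Mpeg1, a pore-forming protein of macrophages, 3.20 for Naip6, an inflammasome sensor, and 3.61 for Rasal3. Rasal3 had 8.72 to 17.7 normalized counts in Y130A brain. The sequencing depth of the S226A brains was lower, with 20318413 to 25051861 counts per mutant library.

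The effect of Y130A in brain minus that in liver was -1.25 for Atp1b3, -1.27 for Aplp1 and -1.80 for Gria4. Aplp1 had 186 to 275 normalized counts in Y130A liver and 72.5 to 121 in wild-type liver. Gria4 had 60.7 to 108 against at most 33.0.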

How the results depend on the processing

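Counts of called genes depended on the fit. The stringent count, 0 in the fit of 47 libraries, was 2 with DESeq2, 1 without the filter on low counts and 3 with litter as replicate block in the 8 brains, and 0 whichever library was left out. The count at an adjusted p below 0.05, 1, was 7 with DESeq2, 4 with only the 8 brains and 98 with the paired fit (replicate block), and 0 to 1 when a library was left out. The count at an unadjusted p below 0.05, 375, was 1559 with only the 8 brains, 563 with the replicate block in 47 libraries, 2721 with the paired fit of 8 brains and 158 to 520 when a library was left out, the lowest without the wild-type brain of litter 2974. In the paired fit, 3 stringent calls became 8 with DESeq2 and 0 to 4 when a litter was left out, and 98 calls became 370 with DESeq2 (97 shared), 10 with the length trend and 4 to 57 when a litter was left out. For these counts of calls the cause was not tested.

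The log2 fold change of Tmem267 lay between 2.21 and 2.64 when a library was left out, and its call was lost in 3 of the 8 cases. The genes that differed from S226A brain, 8, numbered 4 to 7 when a library was left out, and those that differed from Y130A liver, 3, numbered 11 with the replicate block and 2 to 3 when a library was left out. The counts of intervals within 2-fold and of genes in 1 direction in 4 of 4 litters stayed within 1.5 times under every alternative tried. The medians of Daxx and its partners (0.00) and of the oligodendrocyte lineage (-0.01) were each 0.01 with RLE size factors. With the length trend, Atrx went from 0.14 to -0.01, the median of erythroid genes from -0.08 to 0.00 and that of the genes that differ between C57BL/6J and C57BL/6N from 0.03 to -0.01. Genes below 50 normalized counts, and changes under about 1.5-fold in the fit of 47 libraries, are where these 8 libraries limit what can be seen.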

Other observations

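Among genes with at least 50 normalized counts on average, a single direction in 4 of 4 litters and groups that do not overlap, the 10 with the highest and the 10 with the lowest log2 fold change included 6 higher and 6 lower genes that were called in neither fit. Tph1, the peripheral and pineal enzyme of serotonin synthesis, had 70.4, 64.1, 87.8 and 88.4 normalized counts in Y130A brain and 16.4, 42.1, 54.8 and 60.7 in wild-type brain (paired fit with edgeR, log2 fold change 0.91, adjusted p = 0.098). Eps8l1, a regulator of the actin cytoskeleton, had 389, 270.4, 466 and 314 against 129, 239, 212 and 254 (0.79, adjusted p = 0.0891). It was higher in 4 of 4 litters in S226A brain as well, by 1.48 ± 0.35 in the fit of 47 libraries (adjusted p = 0.0538). Ppara, a nuclear receptor of fatty acid oxidation, had 59.9, 68.6, 61.3 and 52.3 against 36.6, 40.1, 42.2 and 50.3 (0.52, adjusted p = 0.16). Dnah12, a dynein of motile cilia, had 92.5, 94, 93.6 and 96.2 against 62.8, 60.9, 45.8 and 79.8 (0.62, adjusted p = 0.0846). Gm20696 (0.70, adjusted p = 0.0939) and Traf1, an adaptor of tumor necrosis factor receptors (0.58, adjusted p = 0.125), were the other higher genes.

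Of the lower genes, Tusc1 had 68.6, 58.1, 67.7 and 51.1 normalized counts in Y130A brain and 88.4, 69.6, 134 and 91.9 in wild-type brain (-0.62, adjusted p = 0.0941). The clustered protocadherin Pcdha1 had 41.3, 46.4, 39.7 and 37.3 against 68.2, 66, 55.3 and 58.4 (-0.59, adjusted p = 0.0975). Scx, a transcription factor of tendons, had 54.7, 49.2, 37.5 and 46.3 against 68.2, 56.4, 82.7 and 63.6 (-0.53, adjusted p = 0.185). The paired log2 fold change was -0.45 for Epop, a partner of Polycomb repressive complex PRC2 (adjusted p = 0.132), -0.43 for Gal3st1, an enzyme of sulfatide synthesis (adjusted p = 0.109), and -0.41 for Tcfl5 (adjusted p = 0.141).

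Krt1, a keratin of skin, was present at uneven levels. It had 163, 149, 158 and 328 normalized counts in Y130A brain and 165, 214, 624 and 766 in wild-type brain. The tissue from which it came was not tested.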
